A study of Mus musculus with 4 samples.

Results

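The genes described are the mouse C-type lectins, Siglecs and galectins, chosen by symbol: every gene whose name in the probe annotation begins with Clec and a digit, with Siglec or with Lgals. The rule found 41 genes among the 18193 named on the array, of which 26 were C-type lectin symbols, 5 Siglecs and 10 galectin symbols. Where a gene had several probe sets named for it alone, the brightest over the 4 arrays stood for it. Another 8 mouse genes with such symbols, among them Siglec15, a Siglec studied in osteoclasts, were not analysed here.

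The arrays follow osteoclast formation from the marrow of C57BL/6 mice aged 8 to 10 weeks. Bone marrow macrophages (BMM) were obtained with 3 days of M-CSF at 100 ng/ml, and 2 days of M-CSF with RANKL at 100 ng/ml then gave mononuclear pre-osteoclasts (pOC) that stained for TRAP, an osteoclast enzyme. Multinucleated osteoclasts came from pOC kept in M-CSF and RANKL for 2 more days, either resorbing on slices of dentin (mOCd) or on a plastic plate (mOCp). Each group had 1 array, all groups had M-CSF, and the labels do not say whether 1 mouse or a pool supplied the RNA.

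Lectins are proteins that bind sugar chains. Many C-type lectin receptors of myeloid cells recognise sugars or lipids of microbes and dying cells. They signal through an immunoreceptor activation motif (ITAM), often on a partner such as Tyrobp or Fcer1g, to the kinase Syk, and osteoclast formation also depends on these partners. Siglecs bind sialic acid, and most carry inhibitory motifs (ITIM) that recruit the phosphatase Ptpn6. Galectins bind galactose-containing chains and are found in the cytosol, at damaged vesicles and outside cells.

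Values are the deposited intensities, in linear units, and the floor is the median intensity of an array's probe sets, between 12.7 and 15.8. Values under it were set to it before a ratio was taken, so a ratio with 1 value at the floor is a bound. Genes whose brighter value reached the 75th percentile of its array, between 77.8 and 87.0, are called eligible, and those of them with a ratio of 2-fold or more were counted as higher or as lower. With 1 array per group there is no replicate check, no test and no p-value, and the ratios compare these arrays. As a guide to measurement error, probe sets of the same gene disagreed by 0.42 to 0.53 (SD) on the log2 scale over the 5 comparisons made, which leaves out the spread between cultures.

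Of the 41 genes, 24 were above the floor on some array, 15 of them on every array. The 75th percentile was reached on some array by 13, or 31.7%, against 42.8% of all named genes, and on all 4 arrays by 7. These 13 were 7 C-type lectins (Clec4a2, Clec4a3, Clec4d, Clec4e, Clec4n, Clec5a and Clec7a) and 6 galectin symbols (Lgals1, Lgals3, Lgals3bp, Lgals8, Lgals9 and Lgalsl). No Siglec was among them.

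The labels were checked against cell markers. All 10 osteoclast markers exceeded the floor in pOC, mOCd and mOCp and 5 did in BMM, with Ctsk at 22.5 in BMM and at least 8026 in the other groups, while the macrophage genes Cd68 and Csf1r read at least 4155 and 4899 on every array. The other 10 macrophage markers, among them Fcgr1, Cx3cr1 and the C1q genes, were all dimmer in pOC than in BMM, with summed intensities of 22770.2 in BMM, 1825 in pOC, 1702 in mOCd and 4248 in mOCp. Of 8 neutrophil markers measured, 6 to 7 exceeded the floor, and their summed intensity was 324 in BMM, 842 in pOC, 969 in mOCd and 1886 in mOCp. Mast cell, B cell, T and NK cell and endothelial markers never reached the 75th percentile, and their lists summed to 11.9 to 49.5. Conventional dendritic cell markers summed to 76.7 to 180, the plasmacytoid list to 173 to 262, the eosinophil list to 39.0 to 403 (mostly Ccr3), and the stromal list to 49.4 to 263 (Dcn up to 196). The megakaryocyte list summed to 1330 to 2510, nearly all from Pf4. In bulk RNA, fewer cells of a type and less RNA per cell cannot be told apart.

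**Figure D1:**
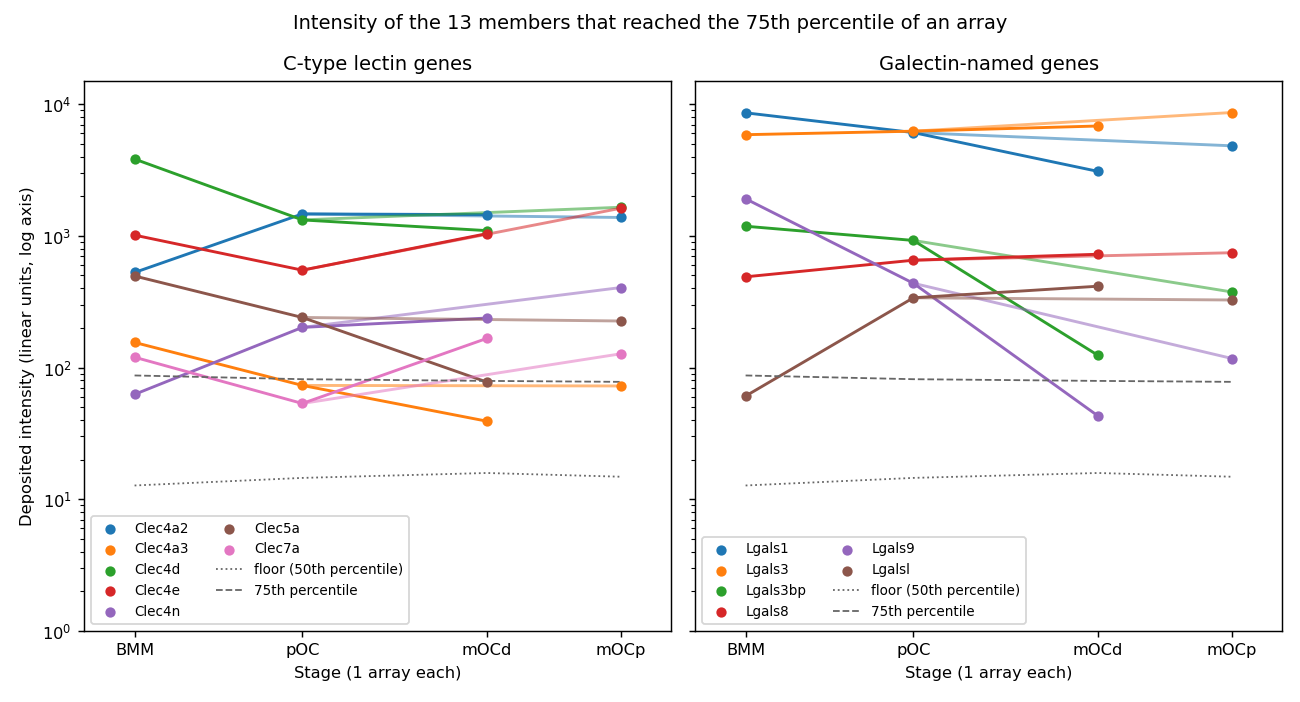
Deposited intensity (log axis) of the 13 genes that reached the 75th percentile of an array, in BMM, pOC, mOCd and mOCp, with 1 array for each point and the 2 mature groups branching from pOC (faint lines lead to mOCp). Lgals9 and Lgals3bp are highest in BMM and lowest in mOCd, Lgalsl and Clec4n start below the 75th percentile in BMM, and Lgals3 stays between 5868 and 8651.

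The effect of RANKL was followed in pOC against BMM, which cannot be told apart from that of 2 days in culture, and 3 of the 13 eligible genes were counted as higher and 5 as lower. Over all genes, 11.1% of 7256 eligible ones were higher and 13.2% were lower, 24.3% in all. The 3 higher ones were Lgalsl, Clec4n and Clec4a2, and the 5 lower ones were Lgals9, Clec4d, Clec7a, Clec4a3 and Clec5a. The median log2 ratio of the 22 genes above the floor on either array was -0.37, against 0.09 over all such genes. With spike-in scaling 3 were lower in place of 5, and the median lay between -0.56 and -0.11 over the alternatives.

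Maturation was followed on both surfaces. In mOCp against pOC, 3 of 12 eligible genes (Clec4e, Clec7a and Clec4n) were higher and 2 (Lgals9 and Lgals3bp) lower, where 8.8% and 11.4% of all 7192 eligible genes were (20.2% in either direction). In mOCd against pOC, 1 of 12 (Clec7a) was higher and 3 (Lgals9, Lgals3bp and Clec5a) were lower, where 10.8% and 12.3% of 7230 genes were (23% in either direction). The medians were 0.23 on plastic and 0.13 on dentin, against 0.01 over all genes in both, but their sign depended on the processing. With spike-in scaling they were -0.20 and -0.22, and 1 gene was higher on plastic in place of 3, and with the mean over probe sets they were 0 and -0.17. These comparisons share the pOC array, so they are not independent of each other, and maturation cannot be told apart from the 2 more days of culture.

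In mOCd against mOCp, which differ in surface, 0 of 12 eligible genes were higher and 3 were lower, namely Lgals3bp, Clec5a and Lgals9. Of all 6915 eligible genes 2.15% were higher and 2.55% lower, 4.7% in either direction. The median was -0.41, against 0.01 over all genes, and -0.10 without suffixed probe sets. Over the whole course on plastic, mOCp against BMM, 3 of 13 were higher and 5 lower, where 16.9% and 19.4% of 7459 genes were (36.2% in either direction). The higher ones were again Clec4n, Lgalsl and Clec4a2, and the lower ones were Lgals9, Lgals3bp, Clec4d, Clec5a and Clec4a3.

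**Figure D2:**
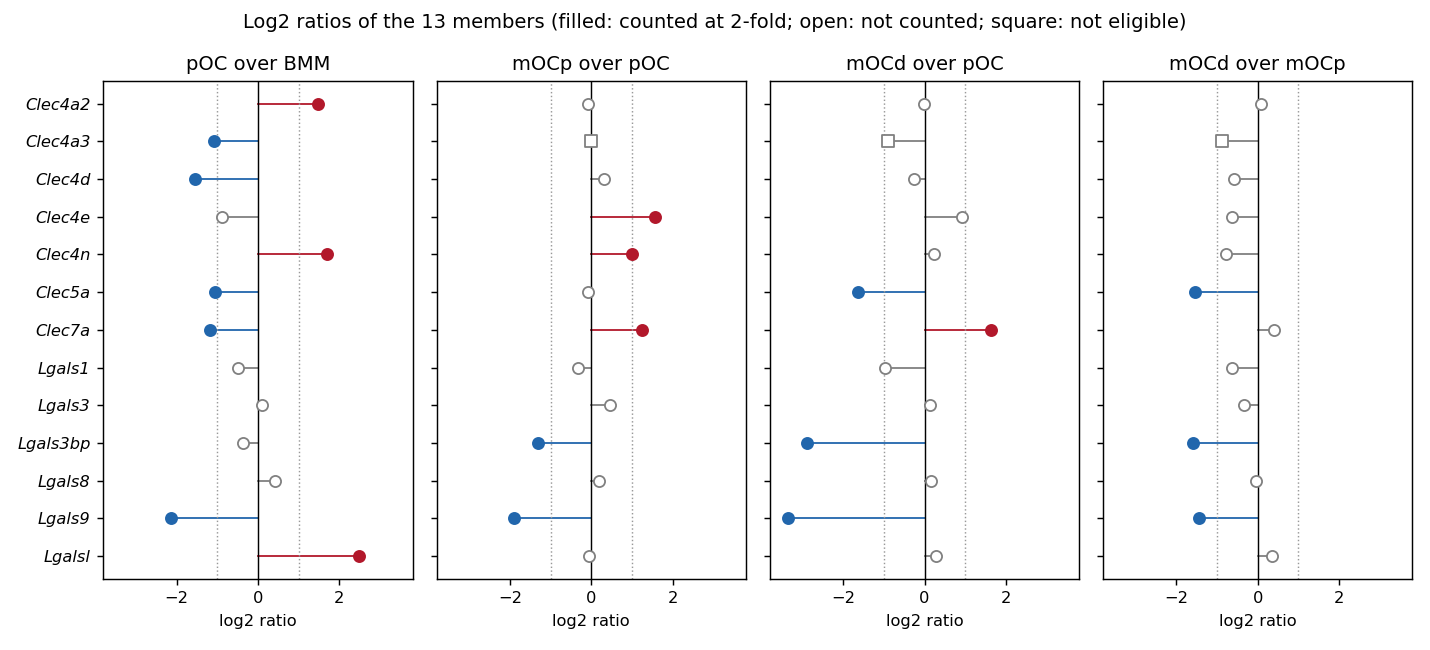
Log2 ratios of the same 13 genes in 4 comparisons, with dotted lines at 2-fold. Filled points were counted as higher (red) or lower (blue), open circles were eligible and not counted, and squares were not eligible. In pOC over BMM 3 points are red and 5 blue, and in mOCd over mOCp 3 are blue and none is red.

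The Dectin-2 family sits together on chromosome 6, in the order Clec4a3, Clec4b1, Clec4a2, Clec4n, Clec4d and Clec4e, with at most 1 other protein-coding gene between neighbours in the RefSeq order. They are activating receptors that pair with Fcer1g (Clec4n, Clec4d and Clec4e), the inhibitory Clec4a2, and Clec4a3 and Clec4b1. In pOC over BMM, Clec4a2 and Clec4n were higher, between Clec4a3 and Clec4d, which were lower.

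Clec4n encodes dectin-2, which binds fungal mannans. It had 62.5 in BMM, 202 in pOC, 238 in mOCd and 405 in mOCp. All arrays after RANKL read above BMM, with a log2 ratio of 1.69 (3.23-fold) in pOC over BMM and 1.01 (2.01-fold) in mOCp over pOC. Its other probe set gave 1.32 and 1.12. The step in mOCp lay at the threshold and was not counted after median scaling (0.98) or spike-in scaling (0.57).

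Clec4d encodes a receptor for mycobacterial cord factor and partners with Clec4e. Its intensity was 3832 in BMM, 1322 in pOC, 1096 in mOCd and 1650 in mOCp, so every array with RANKL was below BMM. It was 2.9-fold lower in pOC than in BMM (log2 ratio -1.54), and from pOC the 2 mature arrays differed in sign, at -0.27 for mOCd and 0.32 for mOCp, both within the disagreement of probe sets. With spike-in scaling both were negative, at -0.62 and -0.11.

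Clec4e encodes Mincle, the other cord factor receptor. It read 1013 in BMM, 549 in pOC, 1040 in mOCd and 1623 in mOCp, lowest in pOC and highest on plastic. Its log2 ratio was -0.88 in pOC over BMM, short of 2-fold, and 1.56 (2.96-fold) in mOCp over pOC, with -0.98 and 1.67 on its second probe set. In mOCd over pOC it was 0.92, or 1.89-fold, also short of the threshold. The summed neutrophil markers were likewise highest in mOCp, led by S100a8 at 380.1 in pOC, 507 in mOCd and 1113 in mOCp. The 10 macrophage markers other than Cd68 and Csf1r summed to 22770.2 in BMM, 1825 in pOC, 1702 in mOCd and 4248 in mOCp. Among the arrays with RANKL that sum was highest in mOCp too. The part of either cell type in the Clec4e value was not tested.

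Clec4a2 encodes the inhibitory receptor DCIR. It had 527 in BMM, 1468 in pOC, 1450 in mOCd and 1379 in mOCp. The 3 arrays with RANKL lay close together and 2.62-fold or more above BMM, with a log2 ratio of 1.48 in pOC over BMM and 2.22 on its second probe set. The related Clec4a3 had 155 in BMM, 73.1 in pOC, 39.1 in mOCd and 72.4 in mOCp, a log2 ratio of -1.08 in pOC over BMM. That call ended with spike-in scaling (-0.92). Clec4b1, at 25.4 in BMM and 11.8 to 24.5 elsewhere, never reached the 75th percentile.

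**Figure D3:**
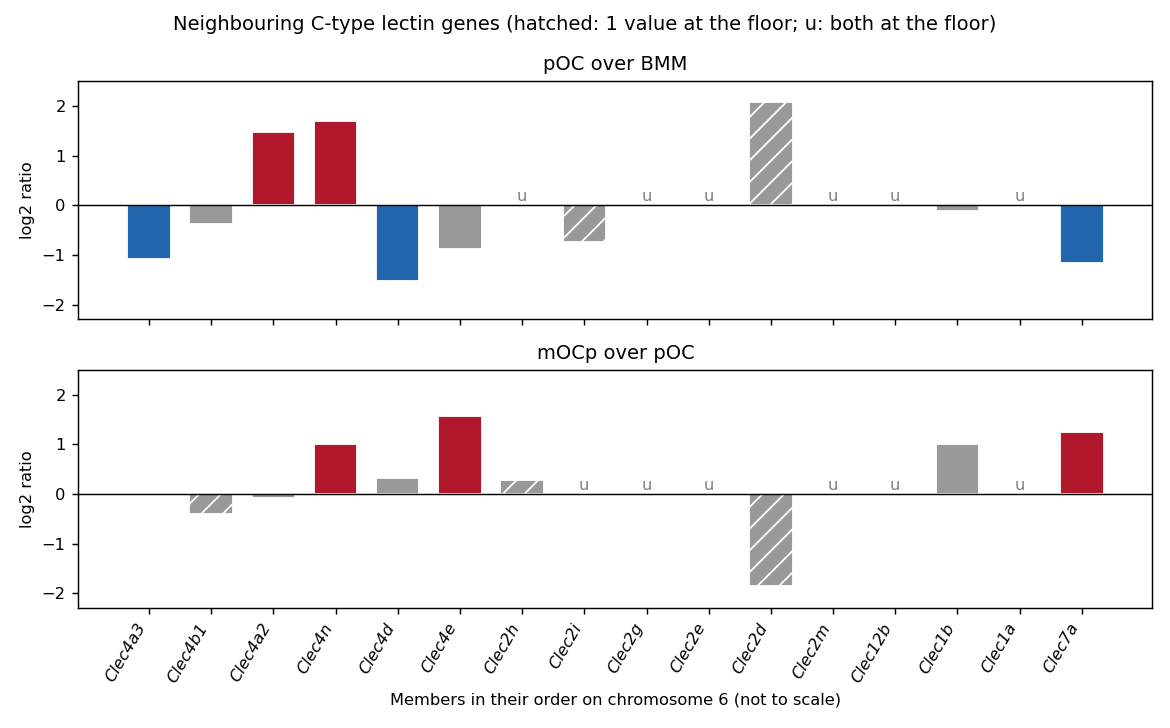
Log2 ratios of the C-type lectin genes in their order along the chromosome 6 clusters (spacing not to scale), pOC over BMM above and mOCp over pOC below. Red and blue bars were counted as higher and lower, grey bars were not counted, hatched bars are bounds, and u marks genes at the floor on both arrays. In the upper panel the adjacent Clec4n (1.69) and Clec4d (-1.54) point opposite ways.

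The promoters of the adjacent Clec4d and Clec4e are shown because their ratios differ, from RefSeq on GRCm38.p6, as the 250 bases before the start and the first 30 after it, 5′ to 3′. Clec4n had no entry. Capitals mark matches to GAAA, any 2 bases and GAAA again, the core of an interferon-stimulated response element, searched on both strands together with GAGGAAGT, a motif of the myeloid factor PU.1. Among the 34 genes with an entry, 4 (Clec2d, Clec4b1, Clec4d and Lgals9) held the GAAA pair in the window of 300 bases and 0 held GAGGAAGT, against 3.99% and 3.69% of all 27025 genes in the table. A match is a description of the letters and not a site of binding.
Clec4d, chr6:123261857-123262136, + strand: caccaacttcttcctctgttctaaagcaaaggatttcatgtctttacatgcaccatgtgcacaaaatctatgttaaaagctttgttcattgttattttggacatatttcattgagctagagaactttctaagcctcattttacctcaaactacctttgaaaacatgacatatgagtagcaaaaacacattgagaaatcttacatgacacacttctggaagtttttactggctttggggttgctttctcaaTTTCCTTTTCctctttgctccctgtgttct
Clec4e, chr6:123289842-123290121, - strand: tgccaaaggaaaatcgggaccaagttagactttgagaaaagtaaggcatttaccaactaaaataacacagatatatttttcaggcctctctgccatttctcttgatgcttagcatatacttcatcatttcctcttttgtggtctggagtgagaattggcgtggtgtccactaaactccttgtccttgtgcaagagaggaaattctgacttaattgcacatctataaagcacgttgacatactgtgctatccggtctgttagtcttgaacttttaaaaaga
The match in Clec4d begins at base 251, the start site, on the reverse strand, and Clec4e holds neither motif.

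Clec7a and Clec5a, the remaining C-type lectins above the 75th percentile, differed in direction on dentin. Clec7a encodes dectin-1, the receptor for fungal beta-glucan, which carries its own ITAM-like motif. It read 120 in BMM, 53.3 in pOC, 166 in mOCd and 127 in mOCp, with pOC the lowest and mOCd the highest. The log2 ratios were -1.17 in pOC over BMM, 1.64 (3.12-fold) in mOCd over pOC and 1.25 (2.39-fold) in mOCp over pOC, the last 0.82 and not counted with spike-in scaling. In mOCp over BMM the ratio was 0.09, so the plastic culture stood near the macrophages again. Clec7a had 1 probe set.

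Clec5a encodes MDL-1, a receptor that signals through Tyrobp. It had 496 in BMM, 240 in pOC, 77.5 in mOCd and 226 in mOCp. The mOCd array stood alone at the low end, 3.1-fold below pOC (log2 ratio -1.63) and 2.91-fold below mOCp (-1.54), while mOCp and pOC differed by -0.09. The value in pOC against BMM, -1.05, was just past 2-fold and -0.88 with spike-in scaling. The transferrin receptor control had a 3′ to 5′ log2 ratio of 1.70 in mOCd, against 0.84 to 1.01 in the other groups. The Gapdh control did not set mOCd apart, at -0.34 against -0.43 to -0.29 in the other groups. The part of RNA quality in the mOCd values was not tested.

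Among galectins, Lgals9 had the widest range. Galectin-9 binds the immune receptor encoded by Havcr2, and its gene is induced by interferon in several cell types. It read 1912 in BMM, 436 in pOC, 42.9 in mOCd and 117 in mOCp, lower at each stage and lowest on dentin. It was 4.38-fold lower in pOC than in BMM (log2 ratio -2.13), 3.73-fold lower in mOCp than in pOC (-1.90), 10.2-fold lower in mOCd than in pOC (-3.35) and 2.73-fold lower in mOCd than in mOCp (-1.45). Only 1 probe set, a suffixed one that can match several transcripts, measured it.

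Lgals3bp is no galectin in structure but a secreted glycoprotein that binds galectin-3, and it too is an interferon-induced gene. Its intensity was 1183 in BMM, 923 in pOC, 124 in mOCd and 374 in mOCp. BMM and pOC differed by -0.36 on the log2 scale, within the disagreement of probe sets, and the mature arrays were both lower. The log2 ratios were -2.90 (7.46-fold lower) in mOCd over pOC, -1.30 (2.47-fold lower) in mOCp over pOC and -1.60 (3.02-fold lower) in mOCd over mOCp. All 4 calls of Lgals3bp held under the 8 alternatives tried.

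The interferon response list is given beside them. In pOC over BMM 6 of 10 eligible genes were lower and 0 higher, where 13.2% of all genes were lower. In mOCp over pOC and in mOCd over pOC 7 of 7 were lower (11.4% and 12.3% of all genes), and in mOCp over BMM 10 of 10 (19.4%). In mOCd over mOCp 2 were eligible and 1, Ifitm3, was lower (2.55% of all genes). Irf7, which drives interferon genes, read 474 in BMM, 270.0 in pOC, 6.9 in mOCd and 61.8 in mOCp, and Ifitm3 4562, 4820.1, 316 and 1104 in the same order. In pOC over BMM the log2 ratios of the list ran from -4.06 or lower (Mx1) to 0.08 (Ifitm3), with a median of -2.31. Those of Lgals9 and Lgals3bp were -2.13 and -0.36. That Lgals9 and this list decline was already known from these arrays when the list was chosen, and whether interferon signalling sets their levels was not tested.

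**Figure D4:**
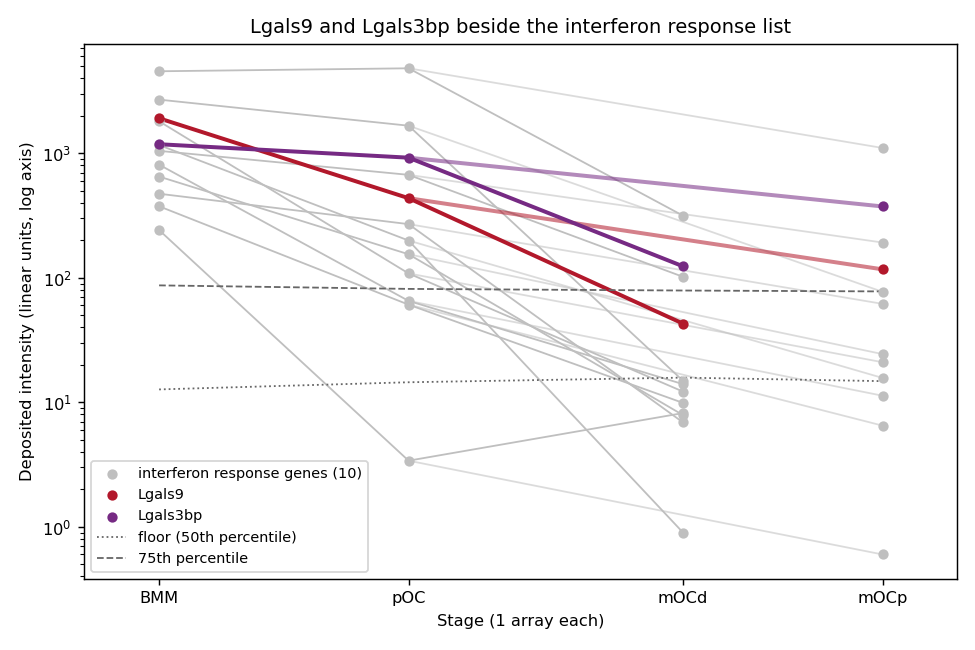
Deposited intensity (log axis) of Lgals9 (red) and Lgals3bp (purple) beside the 10 measured genes of the interferon response list (grey), with 1 array per point and faint lines to mOCp. Lgals9 reads 1912 in BMM and 42.9 in mOCd, and Lgals3bp 1183 and 124. Points under the dotted floor are not separated from background.

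The promoters of these 2 genes, both on chromosome 11, are shown for the same 2 motifs.
Lgals9, chr11:78984895-78985174, - strand: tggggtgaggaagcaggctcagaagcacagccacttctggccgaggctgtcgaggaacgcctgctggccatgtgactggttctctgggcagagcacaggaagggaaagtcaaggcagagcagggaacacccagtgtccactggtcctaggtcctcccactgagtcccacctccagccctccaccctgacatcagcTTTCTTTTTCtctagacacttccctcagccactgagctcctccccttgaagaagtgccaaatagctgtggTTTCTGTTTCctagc
Lgals3bp, chr11:118401930-118402209, - strand: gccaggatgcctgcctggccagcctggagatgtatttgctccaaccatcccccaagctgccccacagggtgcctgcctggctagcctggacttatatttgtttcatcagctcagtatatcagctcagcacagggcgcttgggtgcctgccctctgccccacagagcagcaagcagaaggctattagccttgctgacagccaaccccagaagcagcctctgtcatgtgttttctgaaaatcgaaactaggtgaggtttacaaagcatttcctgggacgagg
Lgals9 holds the GAAA pair on the reverse strand at bases 196 and 266, either side of its start site, and the letters of neither motif are in the Lgals3bp window. Only exact letters were searched, and near matches were not looked for in either gene.

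Lgals3, galectin-3, which is abundant in macrophages, had 5868 in BMM, 6239.9 in pOC, 6831 in mOCd and 8651 in mOCp, with no ratio over 1.47-fold. Lgals8, which marks damaged endosomes, had 489, 653, 725 and 745 in that order, with its second probe set at 341, 467, 388 and 575. Lgals1, galectin-1, had 8604 in BMM, 6090.1 in pOC, 3089 in mOCd and 4830.2 in mOCp, highest in BMM and lowest on dentin. Its log2 ratio was -0.98 in mOCd over pOC, just short of 2-fold, and -1.14 (2.2-fold lower) on its second probe set. It was past 2-fold with median scaling (-1.10), spike-in scaling (-1.33), quantile normalization (-1.04) and the mean over probe sets (-1.06).

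Lgalsl encodes a galectin-related protein. It had 60.7 in BMM, 339 in pOC, 414 in mOCd and 326 in mOCp. All arrays with RANKL were above the 75th percentile and BMM was below it. The log2 ratio in pOC over BMM was 2.48 (5.58-fold), the highest measured above the floor in both groups among the members, and 1.77 on its second probe set, and the mature arrays stayed within 0.29 of pOC. The call held under all 8 alternatives.

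The 11 genes above the floor that never reached the 75th percentile give only coarse values. Clec2d, known in mouse as osteoclast inhibitory lectin and as a ligand of natural killer cell receptors, read 9.7 in BMM, 53.3 in pOC, 35.4 in mOCd and 14.3 in mOCp. It was above the floor in pOC and mOCd alone, so pOC was at least 4.2-fold above BMM and at least 3.6-fold above mOCp at these low intensities. Clec16a, an autophagy-related gene named with the family, was under the floor in BMM and pOC and read 48.1 in mOCd and 32.5 in mOCp. Its second probe set was under the floor on every array, at 2.0 to 5.6, and did not show that rise. Siglec1, the macrophage sialoadhesin, exceeded the floor in BMM only, at 33.2, so pOC was at least 2.29-fold lower, and its 2 other probe sets read 28.5 and 29.4 in BMM.

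Clec10a, a galactose-binding macrophage lectin, had 35.3 in BMM, 9.8 in pOC, 2.2 in mOCd and 31.0 in mOCp, above the floor in BMM and mOCp. Clec1b, the podoplanin receptor of platelets, had 16.1 in BMM, 14.9 in pOC, 29.2 in mOCd and 29.9 in mOCp. Lgals2 read 13.4 in BMM, 14.1 in pOC, 22.9 in mOCd and 31.8 in mOCp, and Lgals12, the adipocyte galectin, 13.1, 14.8, 16.2 and 28.2 in that order. The second probe set of Lgals2 passed the floor only in mOCp, at 16.0. That of Lgals12 was under the floor on every array, at 0.4 to 8.2. Clec11a, a bone growth factor, Clec2h and Clec2i stayed at or under 24.3.

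All 4 values of 17 genes lay at or under the floor, and no ratio is given for them. They included 4 of the 5 Siglecs, Siglece (neutrophils and macrophages), Siglecf (eosinophils), Siglecg (B cells) and Siglech (plasmacytoid dendritic cells), with intensities from 0.4 to 12.9. The others were Clec1a, Clec2e, Clec2g, Clec2l, Clec2m, Clec3b, Clec4f, Clec4g, Clec12b, Clec14a, Clec18a, Lgals4 and Lgals7.

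Of 16 ITAM and ITIM partners measured, 2 were counted higher and 2 lower in pOC against BMM, close to the 11.1% and 13.2% of all genes. In mOCp against pOC 0 of the 16 were counted in either direction, where 20.2% of all eligible genes were. Tyrobp had 3950 in BMM, 3183 in pOC, 5298 in mOCd and 5872 in mOCp. Fcer1g, which serves Clec4n, Clec4d and Clec4e, had 3531, 1645, 1607 and 2828 in that order, 2.15-fold lower in pOC than in BMM. Syk read 264 in BMM, 444 in pOC, 1059 in mOCd and 805 in mOCp, higher at each stage and 2.39-fold higher in mOCd than in pOC. Ptpn6, the phosphatase of inhibitory receptors, had 1189, 618, 544 and 849, with none of the 5 comparisons made at 2-fold. Src was at least 16.0-fold and Nfatc1 19.5-fold higher in pOC than in BMM, and Vav1 2.26-fold lower.

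Lectin receptors of the same families also carry other symbols. Of 26 such genes, 4 were eligible in pOC against BMM, and 3 were lower and 0 higher. Of all eligible genes 13.2% were lower and 11.1% higher. Cd93 had 52.7 in pOC against 1798 in BMM (34.1-fold lower), the mannose receptor Mrc1 36.3 against 770.2 (21.2-fold lower) and Cd72 176 against 1255 (7.13-fold lower). In mOCd against mOCp only 2 were eligible, and both, Cd302 (3.06-fold) and Cd72 (2.27-fold), were lower. Of all eligible genes 2.55% were lower and 2.15% higher there. Cd33, a Siglec under another symbol, had 41.4 in BMM, 17.2 in pOC, 14.6 in mOCd and 33.2 in mOCp.

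Genes of the ligands and of the sugar metabolism around them were listed too, and not all of them encode enzymes that make ligands. Among 20 genes of sialic acid metabolism, 15 were eligible in pOC against BMM, with 5 higher and 1 lower, where 11.1% and 13.2% of all genes were, and the median was 0.46, against 0.09. St3gal2 was 5.54-fold, St3gal1 4.57-fold and St6galnac4 4.39-fold higher, and the ganglioside synthase St3gal5 3.87-fold lower. St8sia6, a sialyltransferase, read 0.3 in BMM, 27.5 in pOC, 383 in mOCd and 175 in mOCp, 13.9-fold higher in mOCd than in pOC and 6.35-fold in mOCp. All 17 galectin ligands and N-glycan branching genes were eligible in pOC against BMM. Of them 6 were lower and 1 higher, where 13.2% and 11.1% of all eligible genes were. Their median was -0.62, against 0.09 over all genes. Havcr2, the galectin-9 receptor, led the lower ones, at 60.4 in pOC against 227 in BMM (3.76-fold lower). Mgat5, which builds the branches that galectin-3 prefers, was 3.43-fold lower in pOC than in BMM and 2.02-fold higher in mOCd than in pOC. In mOCp against pOC 16 of the 17 were eligible, with 0 higher and 0 lower, where 8.8% and 11.4% of all eligible genes were. The median of the 17 was 0.56, against 0.01 over all genes.

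The scaling of the arrays affects small ratios. Hybridisation spike-ins were brighter in mOCp by 0.43 and in mOCd by 0.35, relative to pOC (log2), and BMM was above pOC by 0.16. The median ratio of all genes with spike-in scaling was 0.26 in pOC over BMM, -0.42 in mOCp over pOC, -0.34 in mOCd over pOC and -0.21 in mOCp over BMM, and with median scaling it was -0.10, -0.02, -0.11 and -0.17, against 0.01 to 0.09 as deposited. Over all genes the counts were 633 higher and 820 lower in mOCp against pOC, but 284 and 1655 with spike-in scaling. In mOCd against pOC they were 779 and 886, but 443 and 1596 with spike-ins and 636 and 1090 with median scaling. In pOC against BMM they were 809 and 956, but 1034 and 789 with spike-ins and 589 and 1216 with median scaling. In mOCd against mOCp they were 149 and 176, but 193 and 146 with spike-ins and 108 and 230 with median scaling, and in mOCp against BMM 1258 and 1445, but 957 and 1956 with spike-ins and 998 and 1859 with median scaling. The member splits that moved so far were 3 higher and 3 lower in pOC against BMM, and 1 higher and 2 lower in mOCp against pOC, both with spike-ins.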

How the data were processed

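Total RNA of 4 groups, 1 array each, was biotin-labelled and hybridised, per the labels' protocols. The deposited values are linear intensities made with MAS5 per the submitters' processing notes; its version is not given in the sources used here. After trimming 2% at either end, the mean of every array was 100.0, and values scaled to a common mean carry no difference in total mRNA. Of 45101 probe sets, 64 were controls, 34945 carried 1 symbol in a 2016 platform annotation, 932 several and 9160 were unnamed here. All 41 members matched RefSeq (GRCm38.p6) by Entrez identifier.

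Intensities were floored at the 50th percentile of the non-control probe sets of each array, the brightest probe set per gene was taken by its mean floored log2 intensity (a choice made after first results, which changed no ratio of a member), and log2 ratios were computed in Python 3.11.15 with pandas 2.3.3 and numpy 2.4.6. The number of arrays limits the precision. The probe-set disagreement is the SD of the difference between the log2 ratios of the used and next brightest probe sets, divided by the square root of 2, a definition settled after a first version had been computed. The computation was tested on simulated data. The planted changes were larger than 2-fold, in bright genes only, with less noise than the disagreement of probe sets. Recovery of dim genes and of ratios near 2-fold was therefore not covered. The alternatives were 2 floors, 3 scalings, 2 rules for probe sets and no brightness minimum. The gene lists and marker lists, the members and the comparisons were chosen with earlier results of these data known. Every member may be named, with full values for those that reached the 75th percentile, and list genes by their largest ratios and as partners of the receptors. Protein patterns were not searched, because no protein table was used here.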

Additional observations from a re-analysis of the deposited data

Results flagged for a closer look

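Clec4d differed in sign between the mature groups: its log2 ratio was -0.27 in mOCd over pOC and 0.32 in mOCp over pOC, a difference of -0.59. The difference was not tested, since each group has 1 array, and both ratios lie within the disagreement between probe sets. Lgalsl differed in sign likewise, at 0.29 in mOCd over pOC and -0.06 in mOCp over pOC, a difference of 0.35 that was not tested either. With spike-in scaling neither gene differed in sign: Clec4d was at -0.62 in mOCd over pOC and -0.11 in mOCp over pOC, and Lgalsl at -0.06 and -0.49.

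A probe set named for both Clec4b1 and Clec4a2 was left out of all comparisons because it names no single gene. It read 509.6 in BMM, 1815 in pOC, 1908 in mOCd and 1833 in mOCp, a log2 ratio of 1.83 in pOC over BMM, next to 1.48 and 2.22 on the probe sets of Clec4a2 alone and -0.38 on that of Clec4b1.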

How the results depend on the processing

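The counts of members and their medians were recomputed under 8 alternatives in 5 comparisons. By the rule used, 9 of 115 such values moved and 106 did not. That rule tolerates moderate changes of a count, and shifts of a median or single ratio smaller than the disagreement of probe sets. The lower count in pOC over BMM, 6 with median scaling in place of 5, was thus not a move. Of the values for single members, 12 of 414 moved and no counted one reversed. All 12 were in mOCp over pOC with spike-in scaling, which shifts each ratio there by 0.43, past the disagreement of 0.42. A call could end without a move, as for Clec5a in pOC over BMM with spike-in scaling. Spike-in scaling used 12 of 18 spike-in probe sets, those above the floor on every array, a restriction chosen after seeing the data. With it 3 members were lower in pOC than in BMM, 1 was higher in mOCp than in pOC, and the medians in mOCp over pOC and mOCd over pOC were -0.20 and -0.22, opposite in sign to the deposited scaling. Without suffixed probe sets 3 were lower in pOC than in BMM and 3 in mOCp than in BMM. Over all genes 951 of 6889 and 1388 of 7056 eligible ones were lower at this setting. The member counts fell because Lgals9 and Clec4d had suffixed probe sets only and dropped out, as did the higher Clec4n. Members counted higher in pOC over BMM were still 3, so another was counted in place of Clec4n. Over all genes 764 of 6889 were higher there. With no brightness minimum the members counted higher were 7 in mOCp over pOC, 2 in mOCd over pOC, 1 in mOCd over mOCp (Clec2d) and 6 in mOCp over BMM, since dim genes then count. Over all genes this setting gave 933 higher of 12122 eligible, 1100 of 11685, 319 of 11773 and 1804 of 11904 in the same order. In pOC over BMM it gave 4 members higher and 7 lower, where 1197 and 1299 of 11613 genes were. In mOCp over pOC 3 members were lower, where 1127 of 12122 genes were. The spike-in and quantile settings each ended calls near 2-fold, such as Clec4a3 in mOCp over BMM (-0.95 after quantile normalization). No paired analysis was possible because each group has 1 array. Signal near background limits 28 of the 41 members, which never reached the 75th percentile, and detection calls were not used here.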
